A study of Mus musculus with 18 samples.

Results

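The genes described here are the Wnt ligands, their Frizzled receptors and LRP co-receptors, and the secreted Wnt inhibitors of mouse pancreatic islets. They were taken from the deposited count table by symbol (Wnt, Fzd, Sfrp and Dkk genes, with Lrp5, Lrp6, Frzb and Wif1) and by a minimum of 10 reads in 3 or more of the 18 libraries. Of 55536 genes in the table, 41 matched by symbol and 27 met the read minimum. These 27 are 10 of 19 ligands, 9 of 10 Frizzled receptors, both LRP co-receptors and 6 of 10 inhibitors, and all 27 passed the low-count filter that left 17590 genes for testing.

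RNA was sequenced from islets of 17-week-old male mice of the strain NOD.CB17-Prkdcscid/NCrCrl, a NOD.SCID background whose mice lack mature T and B lymphocytes, so all groups share that background. The mice were wild type (WT), ZNT8 +/- (Het) or ZNT8 -/- (KO), where ZnT8 is the zinc transporter of insulin granules and is encoded by Slc30a8. Islets rested overnight in culture and then spent 24 h either in medium alone or with a cytokine mix of TNF-α (at 100 pg/ml), IL-1β (at 150 pg/ml) plus IFN-γ (at 10 pg/ml), which gave 6 groups of 3 libraries. The labels name 3 mice but do not tie a mouse to a library, so a p-value here rests on the spread between libraries, which may be technical. They do not say how the ZnT8 allele was made or which part of the gene it removes.

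Wnt ligands are lipid-modified secreted proteins that bind a Frizzled receptor together with LRP5 or LRP6. In the canonical branch this stabilises beta-catenin, which joins TCF/LEF factors on target genes, and other branches act through planar polarity and calcium. Secreted Frizzled-related proteins (Sfrp1, Sfrp5 and Frzb, also called Sfrp3) and Wif1 bind Wnt ligands outside the cell, whereas Dickkopf proteins such as Dkk2 bind the LRP co-receptors. No such role is assumed here for Dkk3, which is grouped with the inhibitors by its symbol. In the pancreas, Wnt signals shape the development of the organ and have been linked to the growth and function of beta cells.

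Each library had 22990164 to 29946680 reads in genes, of which the 27 Wnt genes took 0.0282% to 0.0574%. The 9 beta cell markers, Ins1 and Ins2 among them, summed to 14.4% to 23.3% of the scaled library size, and none was at 0 in any library. Slc30a8, read as a check of the genotype labels, stood at 98.8 to 125 CPM in untreated WT and 44.0 to 55.9 CPM in untreated KO libraries, where CPM is counts per 1e6 reads after scaling of library sizes. It was therefore lower but not absent in the libraries labelled KO, and untreated Het libraries, at 95.7 to 126 CPM, overlapped WT. Acinar markers were lower in KO than in WT islets in both treatments, with 11 of 11 tested markers passing each time.

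Untreated WT islets carried a small number of Wnt genes at much higher levels than the rest. Levels between genes are compared here as CPM per kb of exon. Frzb stood first at 15.8 ± 2.80 CPM per kb (SD, n = 3) and Wnt4 second at 12.5 ± 3.28. Their spreads overlapped, although Frzb was higher than Wnt4 per kb in every untreated WT library. Lrp5 followed at 7.45 ± 0.734, then Sfrp5 at 5.65 ± 0.765, Fzd1 at 5.52 ± 0.498 and Lrp6 at 5.47 ± 0.227, and these last 3 lay within each other's spread. Sfrp1 and Fzd3 came next at 3.55 ± 0.498 and 3.27 ± 0.0305. The other 19 genes ranged from 2.52 for Fzd6 down to 0.0683 for Wnt10b. Wnt4 was the leading ligand, since the next ligands, Wnt7a and Wnt5a, stood at 2.24 ± 0.400 and 2.15 ± 0.186 CPM per kb.

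The 14 matching genes below the read minimum had few reads in any library. Wnt3a, Wnt8a and Dkk4 had 0 reads in all libraries, and the most reads in a single library were 4 for Wnt3, 10 for Wnt1, 28 for Wnt2b and 2 for Dkk1. Sfrp2 and Sfrp4 reached 17 and 31 reads, and Fzd10 reached 14. The other 4, Wnt6, Wnt8b, Wnt9b and Wnt16, reached 7, 1, 11 and 1. Just outside the rule, Sfrp4 and Fzd10 had 10 or more reads in 2 libraries, and just inside it Wnt10b had them in 5 and Fzd9 in 7.

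The first question was how the cytokines moved these genes within each genotype. Changes are log2 fold changes ± SE, cytokines minus untreated, from the quasi-likelihood test of edgeR, with p-values adjusted by Benjamini-Hochberg over all genes tested, and a gene passed at an adjusted p under 0.05. In WT islets 4 of 27 fell and 1 rose, against 13.1% lower and 12.6% higher among all genes tested. In Het islets 5 fell and none rose, against 11.8% and 12.8% of all genes. There 9 of the 27 Wnt genes had an unadjusted p under 0.05, against 35.4% of all genes. In KO islets 5 fell and 2 rose, against 16.1% and 15.4%. The share of Wnt genes that fell (14.8%, 18.5% and 18.5%) was thus near that of all genes. Averaged over the genotypes, 8 of 27 fell (29.6%) and 3 rose (11.1%), against 26.2% and 22.8% of all genes. The median log2 fold change of the 27 genes by genotype (WT, Het, KO) was 0.10, -0.25 and -0.28, and that of all genes was -0.01, -0.03 and -0.03. The largest changes belonged to 3 genes, Wnt4, Sfrp5 and Frzb.

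**Figure D1:**
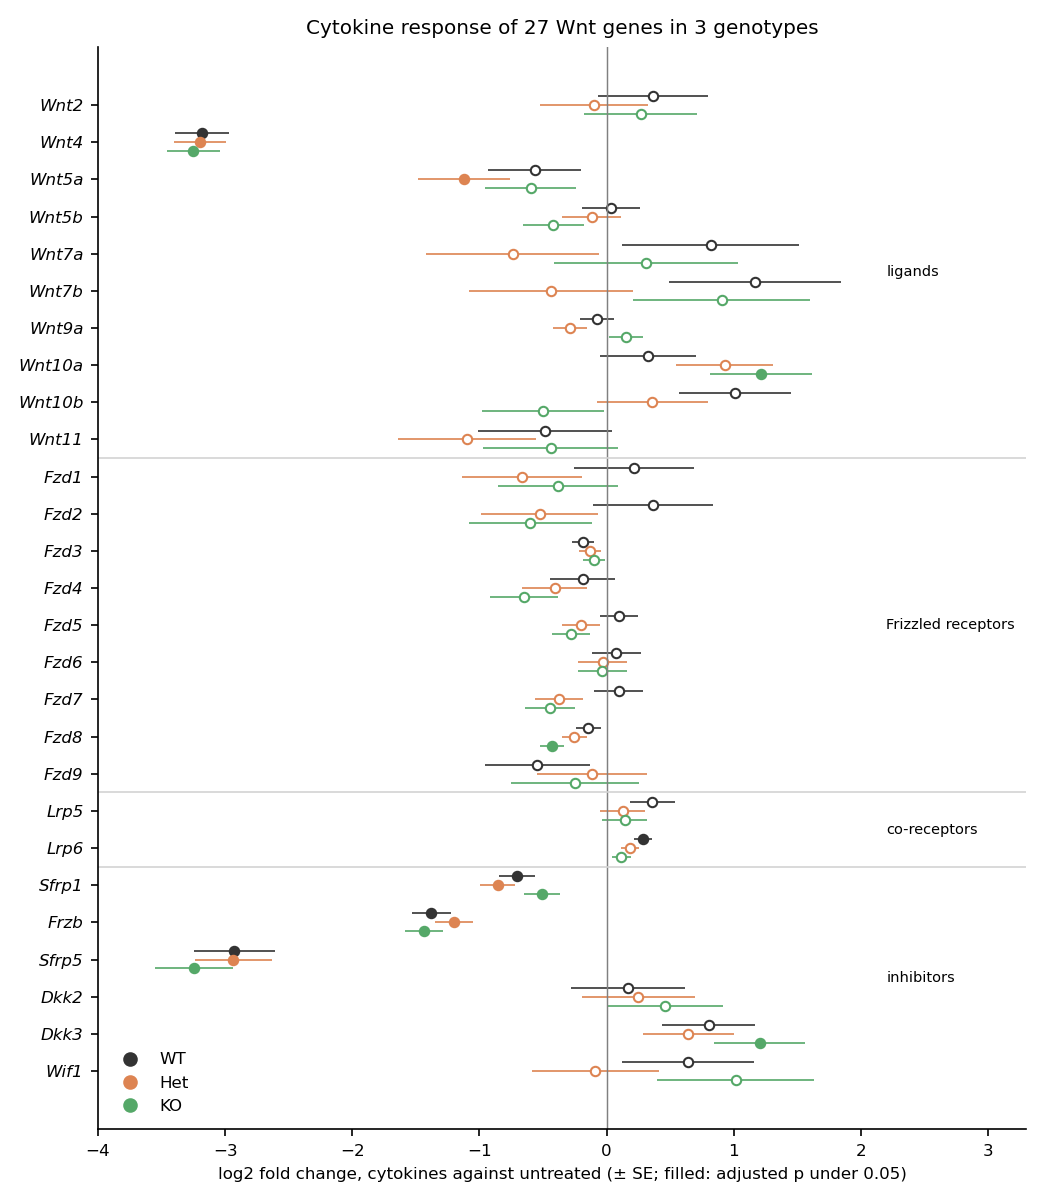
Cytokine response of the 27 Wnt genes by role. The x axis is the log2 fold change, cytokines minus untreated, with 1 row per gene; points are the WT, Het and KO estimates, filled where the adjusted p was under 0.05, and bars are the SE. Wnt4, Sfrp5 and Frzb lie left of 0 in all 3 genotypes, while most receptors lie near 0.

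Among the ligands, Wnt4 fell about as far in every genotype. Wnt4 (ENSMUSG00000036856; GRCm38 chromosome 4, 137277489 to 137299726, plus strand) encodes a ligand known from kidney and gonad development. Its level in untreated WT libraries was 36.9, 63.4 and 56.6 CPM, and with cytokines it was 5.0, 6.26 and 5.96 CPM. In Het islets it was 75.1, 71.6 and 46.6 CPM untreated and 6.74, 7.11 and 7.22 CPM with cytokines. In KO islets it was 88.4, 87.6 and 69.5 CPM untreated and 8.85, 9.20 and 7.76 CPM with cytokines. Every treated library lay far below every untreated one, and the groups did not overlap in any genotype. The log2 fold changes were -3.18 ± 0.21, -3.20 ± 0.21 and -3.25 ± 0.21, which is 9.09-, 9.17- and 9.51-fold lower (edgeR adjusted p of 5.8e-08, 2.7e-08 and 1.6e-08).

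Among the inhibitors, Sfrp5 fell as steeply as Wnt4 and Frzb fell less steeply. Sfrp5 (ENSMUSG00000018822; chromosome 19, 42197971 to 42202252, minus strand) was at 9.66, 10.2 and 12.4 CPM in untreated WT libraries and at 1.12, 1.38 and 1.72 CPM with cytokines. It was at 18.7, 13.1 and 12.4 CPM untreated and 1.67, 1.57 and 2.54 CPM with cytokines in Het islets. The KO values were 24.1, 17.5 and 15.2 CPM untreated and 2.89, 2.06 and 0.998 CPM with cytokines. Treated and untreated libraries did not overlap in any genotype. The log2 fold changes were -2.93 ± 0.32, -2.93 ± 0.31 and -3.24 ± 0.31 in WT, Het and KO islets, or 7.61-, 7.64- and 9.48-fold lower (edgeR adjusted p of 7.0e-06, 3.7e-06 and 9.6e-07).

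Frzb (ENSMUSG00000027004; chromosome 2, 80411970 to 80447625, minus strand), the secreted inhibitor with the highest level, went from 41.4, 52.7 and 59.3 CPM to 19, 19 and 20.9 CPM in WT islets. In Het islets it went from 65.0, 59.2 and 41.9 CPM to 24.9, 22.7 and 24.9 CPM, and in KO islets from 69.9, 66.7 and 55 CPM to 23.2, 25.6 and 22 CPM. The groups were again apart in every genotype. Its log2 fold changes were -1.38 ± 0.15, -1.20 ± 0.15 and -1.44 ± 0.15, that is 2.6-, 2.29- and 2.71-fold lower, with edgeR adjusted p of 7.9e-06, 2.4e-05 and 2.8e-06.

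**Figure D2:**
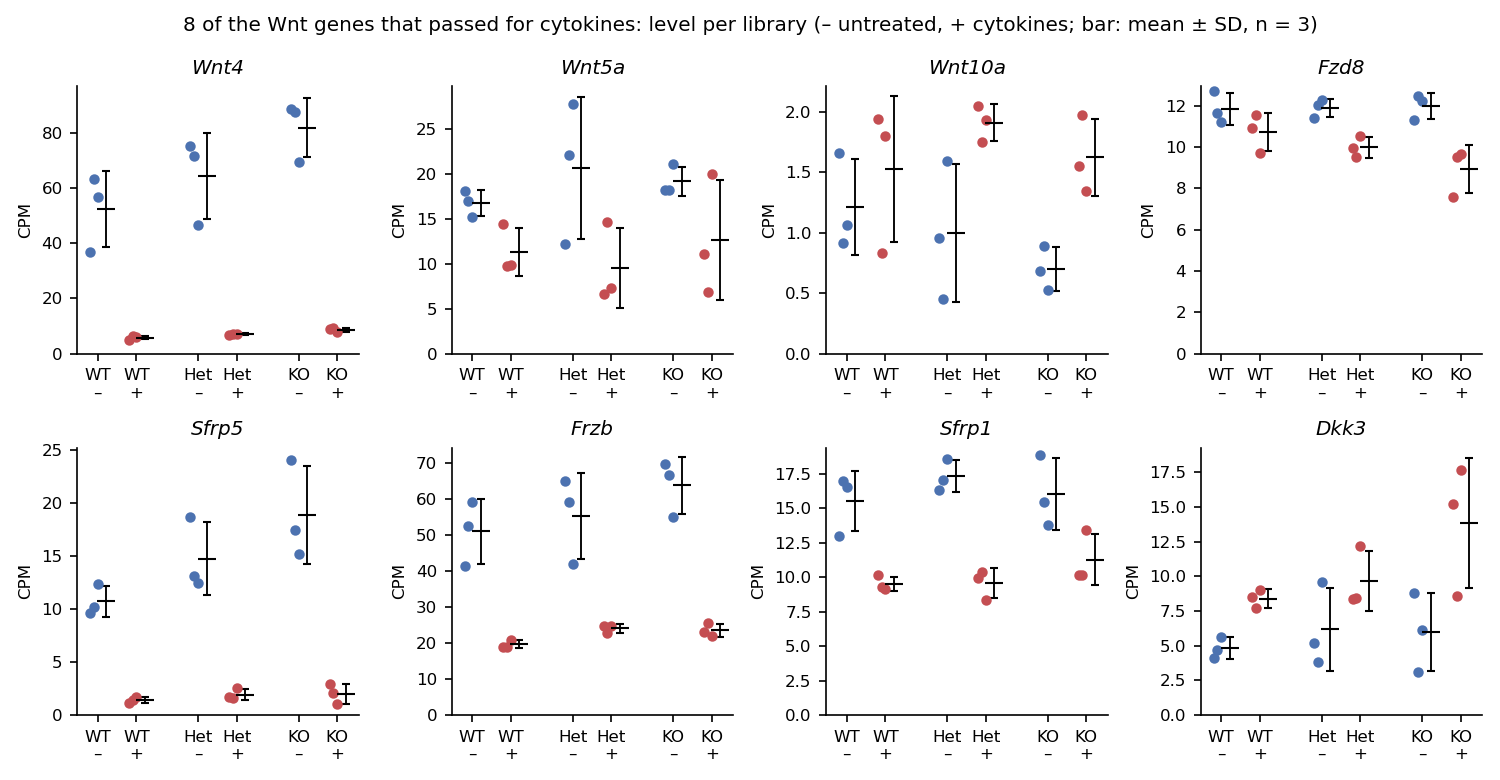
Levels of 8 Wnt genes that passed the cytokine test, per library. The y axis is CPM and the x axis the genotype, untreated (-) or with cytokines (+); each point is a library and the bars are the mean ± SD (n = 3). For Wnt4, Sfrp5 and Frzb the treated points lie below all untreated points of the same genotype; for Dkk3 and Wnt10a the treated means lie above the untreated means.

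Sequence next to the annotated start of these 3 genes is shown because they moved together. It was read from RefSeq promoter windows of GRCm38.p6, 250 bases before to 50 after each start, and 16 of the 27 genes had a window there. For Sfrp5 the RefSeq start equals the gene start given above, whereas for Wnt4 and Frzb it lies downstream of it. For Wnt4 and Sfrp5 the bases of the window upstream of both starts are given with CpG dinucleotides in capitals. For Frzb a stretch of 30 bases is given with motif matches in capitals; it lies upstream of the RefSeq start but inside the gene as given above.
Wnt4, chr4:137277385-137277488, plus strand: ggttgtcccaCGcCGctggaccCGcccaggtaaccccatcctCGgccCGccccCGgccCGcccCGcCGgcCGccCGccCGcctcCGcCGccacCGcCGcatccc
Sfrp5, chr19:42202253-42202502, minus strand: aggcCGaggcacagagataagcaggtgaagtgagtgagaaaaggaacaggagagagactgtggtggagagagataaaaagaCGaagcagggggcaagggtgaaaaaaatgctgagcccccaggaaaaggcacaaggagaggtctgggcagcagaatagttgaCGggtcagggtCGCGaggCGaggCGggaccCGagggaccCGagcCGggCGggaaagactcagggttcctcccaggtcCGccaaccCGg
Frzb, chr2:80447468-80447497, minus strand: gaaaacTCAAAGccTTCTCGGAAggaggag
The Wnt4 stretch of 104 bases holds 16 CpG dinucleotides at 83.7% GC, and the Sfrp5 stretch of 250 bases holds 13 at 59.6% GC. The median window of all 32851 had 7 CpG dinucleotides and 52.7% GC over 300 bases.

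Motifs were sought on both strands of the windows. The TCF/LEF core CTTTGA was in 4 of 19 windows of the Wnt genes and in 16.0% of all windows, and a STAT site, TTCNNNGAA, was in 2 of 19 and in 8.30%. An NF-kB pattern and an interferon-stimulated response element were in 0 of 19, and in 1.63% and 3.44% of all windows. Frzb holds a TCF/LEF core read on the opposite strand, from 95 to 90 bases before the RefSeq start (TCAAAG in the sequence above), and a STAT pattern from 87 to 79 bases before it (TTCTCGGAA), which do not overlap. Wnt4 and Sfrp5 had no match to any of the 4 patterns in this window. A match describes letters and does not show that a factor binds.

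Sfrp1, a secreted inhibitor of many ligands, fell less. It went from 13.0, 17.0 and 16.5 CPM to 10.1, 9.30 and 9.13 CPM in WT islets, from 16.3, 17.1 and 18.6 to 9.95, 10.4 and 8.36 CPM in Het islets, and from 18.9, 15.4 and 13.8 to 10.2, 10.2 and 13.4 CPM in KO islets. Treated and untreated libraries did not overlap, but the highest treated KO library came close to the lowest untreated one. The log2 fold changes were -0.70 ± 0.14, -0.86 ± 0.14 and -0.51 ± 0.14 (edgeR adjusted p of 0.0016, 0.00030 and 0.011). The KO call was lost without untreated KO replicate 1 (edgeR adjusted p = 0.080) or treated KO replicate 1 (0.056), and with only the KO groups in the fit (0.062).

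Dkk3, a divergent member of the Dickkopf family, was the 1 gene grouped as an inhibitor that passed as higher. Untreated WT libraries held 4.09, 4.69 and 5.65 CPM and treated ones 8.51, 7.68 and 8.97 CPM. In Het islets the values were 5.15, 3.85 and 9.56 CPM untreated and 8.33, 8.46 and 12.2 CPM with cytokines, and in KO islets 8.76, 3.12 and 6.10 CPM untreated and 15.2, 8.57 and 17.6 CPM with cytokines. The groups were apart in WT islets and overlapped in Het and KO islets. The average log2 fold change was 0.88 ± 0.21 (edgeR adjusted p = 0.0023). By genotype it was 0.80 ± 0.36 in WT and 0.64 ± 0.36 in Het islets, which did not pass, and 1.20 ± 0.36 in KO islets, which did (edgeR adjusted p of 0.12, 0.22 and 0.018). With only the WT groups in the fit the WT change passed, at 0.81 ± 0.14 (0.0029, the lowest over the alternatives run). The KO call was lost without untreated replicate 2 (edgeR adjusted p = 0.075), treated replicate 1 (0.056) or treated replicate 3 (0.072), and with only the KO groups in the fit (0.064). Dkk2, an LRP-binding antagonist, and Wif1 did not pass in any genotype, with average changes of 0.29 ± 0.26 and 0.52 ± 0.32. With mesenchymal markers as a covariate the averages were 1.20 ± 0.17 and 1.37 ± 0.36, and both passed (edgeR adjusted p of 2.0e-05 and 0.0042, the lowest over the alternatives run). Of these 16 markers 12 fell with cytokines in the average, so the covariate itself follows the treatment. A change found with it cannot be read as the cytokine effect alone.

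Wnt5a, a ligand of the non-canonical branches, fell by 0.76 ± 0.21 on the log2 scale in the average over genotypes (edgeR adjusted p = 0.0067). Its values were 18.1, 17.0 and 15.3 CPM untreated and 14.4, 9.76 and 9.83 CPM with cytokines in WT islets. In Het islets they were 12.2, 22.2 and 27.8 CPM untreated and 6.66, 14.7 and 7.25 CPM treated, and in KO islets 18.3, 18.3 and 21.1 CPM untreated and 11.1, 6.91 and 20.0 CPM treated. The groups were apart in WT islets and overlapped in Het and KO islets, where libraries within a group differed widely. By genotype, the changes were -0.57 ± 0.36, -1.12 ± 0.36 and -0.60 ± 0.36, and the Het change passed (edgeR adjusted p of 0.28, 0.034 and 0.23). That Het call was lost when any of 4 Het libraries was left out (untreated replicates 2 and 3, treated replicates 1 and 3), with adjusted p of 0.085 to 0.13, and with only the Het groups in the fit (0.12). An antisense gene, Gm2670, overlaps Wnt5a exons, and the sources used here do not state whether counting kept strand.

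Mesenchymal and stellate markers moved beside Wnt5a. Of 16 such markers, all detected in every library, 4 fell with cytokines in WT islets, 11 in Het and 5 in KO. None rose in any single genotype, and 13.1%, 11.8% and 16.1% of all genes fell. In the average over genotypes 12 fell and 1 rose, against 26.2% and 22.8% of all genes. The marker that rose was Dcn, by 0.88 ± 0.35 on the log2 scale. The summed level of the 16 markers was 2026 to 2269 CPM in untreated and 969 to 1739 CPM in treated WT libraries. It was 1344 to 3692 and 636 to 1454 CPM in Het, and 1954 to 4414 and 661 to 2273 CPM in KO islets. With the mean level of these markers as a covariate, the average Wnt5a change was -0.04 ± 0.12 (edgeR adjusted p = 0.79) and the Het change -0.04 ± 0.19 (0.89). Over the alternatives run, the adjusted p of the average change ran from 3.1e-05 to 0.79. With the same covariate Wnt4, Sfrp5 and Frzb kept their calls in each genotype. In bulk RNA, fewer cells of a type and less RNA per cell cannot be told apart.

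Beta cell markers also moved beside Wnt4 and Sfrp5. Of 9 markers, 5 fell with cytokines in each genotype and 1 rose, in KO islets alone, with median log2 fold changes of -0.77, -0.74 and -0.89. The 5 that fell were the same in each genotype, Slc2a2, Ucn3, Mafa, Nkx6-1 and Pdx1. In WT islets they fell by 2.87, 3.10, 2.26, 0.92 and 0.77 on the log2 scale. The 9 markers summed to 16.6% to 19.2% of the scaled library size in untreated and 14.4% to 16.3% in treated WT libraries. The sum was 16.3% to 20.1% and 15.4% to 18.2% in Het, and 18.7% to 23.3% and 16.1% to 20.4% in KO islets. Most of it was Ins2, Ins1 and Iapp, at means of 119736, 52253 and 16058 CPM over untreated libraries. None of these passed as lower in a single genotype. Alpha cell markers fell for 3 of 7 in each genotype and none rose, while 13.1%, 11.8% and 16.1% of all genes fell. The part of these markers in the changes of Wnt4 and Sfrp5 was not tested.

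Wnt10a, a canonical ligand, rose from a low level. It stood at 0.683, 0.893 and 0.524 CPM in untreated and 1.55, 1.97 and 1.34 CPM in treated KO libraries, which did not overlap. The Het values were 0.956, 0.454 and 1.59 CPM untreated and 2.05, 1.75 and 1.93 CPM treated, also apart, while WT values of 1.66, 0.914 and 1.06 CPM untreated and 1.94, 0.834 and 1.80 CPM treated overlapped. The changes were 0.33 ± 0.38, 0.93 ± 0.38 and 1.22 ± 0.40 in WT, Het and KO islets, with the KO change passing (edgeR adjusted p of 0.58, 0.090 and 0.031), and 0.82 ± 0.22 on average (0.0063). No library held more than 54 reads of Wnt10a, and the KO call was lost without any of 4 KO libraries (untreated replicates 1 and 3, treated replicates 1 and 2; adjusted p of 0.061 to 0.10) and with mesenchymal or acinar markers as a covariate (0.074 and 0.082), where the change was 1.07 ± 0.46 and 1.09 ± 0.44.

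The other ligands did not pass in any genotype. Wnt9a and Wnt5b, at 5.2 to 6.34 and 2.26 to 3.82 CPM in the group means, had average changes of -0.07 ± 0.08 and -0.17 ± 0.13. Wnt2 and Wnt10b were under 3 CPM in every library, with average changes of 0.18 ± 0.25 and 0.29 ± 0.26. Wnt11 had an average change of -0.67 ± 0.31 (edgeR adjusted p = 0.084), and a pseudogene, Gm8398, overlaps its exons on the other strand.

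Wnt7a and Wnt7b, ligands of epithelia, differed more between libraries than between groups. Wnt7a was at 3.17, 19.9 and 31.7 CPM in untreated Het libraries and at 8.39, 0.763 and 8.52 CPM in treated KO libraries. Wnt7b was high and low in the same libraries, at 2.83, 10.9 and 22.5 CPM and at 7.37, 1.3 and 8.25 CPM. The summed level of 7 duct cell markers in those libraries was 1641, 3769 and 4882 CPM in untreated Het and 3357, 2992 and 3905 CPM in treated KO islets. The lowest library of both these groups was thus the same by all these measures. Untreated WT islets differed, since replicate 1 was lowest in both ligands and highest in the duct sum, at 2803 CPM. In the remaining groups the lowest library was the same. An antisense gene, AU022754, overlaps Wnt7b exons. In WT islets both ligands were higher in every treated library than in any untreated one. Wnt7a went from 6.13, 8.54 and 6.64 CPM to 14.4, 13.6 and 9.52 CPM, and Wnt7b from 3.43, 4.49 and 4.11 CPM to 13.3, 8.51 and 5.17 CPM. These WT changes of 0.82 ± 0.70 and 1.17 ± 0.68 did not pass with the spread of all 6 groups (edgeR adjusted p of 0.43 and 0.23) and passed with only the WT groups in the fit (0.0091 and 0.020). Over the alternatives run, their adjusted p ran from 0.0091 to 0.6 and from 0.00086 to 0.53. Duct markers summed to 1789 to 2803 CPM in untreated and 3635 to 6663 CPM in treated WT libraries, with Spp1 and Muc1 passing as higher. Spp1 alone averaged 1473 CPM in untreated and 4170 CPM in treated WT libraries, which is most of this sum. Over all genotypes Spp1 averaged 1658 CPM untreated and 3287 CPM treated. Of the 7 duct markers 2 passed in WT islets, and their median log2 fold change was 0.36. The part of the duct markers in the ligand values was not tested.

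With Wnt4 lower, the make-up of the ligand pool differed between treatments. Wnt4 made up 53.6% ± 6.97 of the summed ligand CPM per kb in untreated and 10.1% ± 2.58 in treated WT libraries, 51.0% ± 19.8 and 13.3% ± 2.61 in Het, and 68.4% ± 7.04 and 19.9% ± 8.40 in KO islets (SD, n = 3). Wnt7a and Wnt7b together held 13.3% ± 0.826 of the untreated and 40.8% ± 5.09 of the treated WT ligand sum. The ligand sum itself was 23 ± 3.38 CPM per kb in untreated and 14 ± 2.47 in treated WT islets. Among the genes grouped as inhibitors, Dkk3 held 5.13% ± 0.171 of the untreated and 18.9% ± 0.817 of the treated WT sum, and Sfrp5 20.3% ± 1.14 and 5.59% ± 1.12. Frzb stayed the largest inhibitor in both, with 56.5% ± 2.5 and 46.0% ± 1.6. These shares are descriptions and carry no test.

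**Figure D3:**
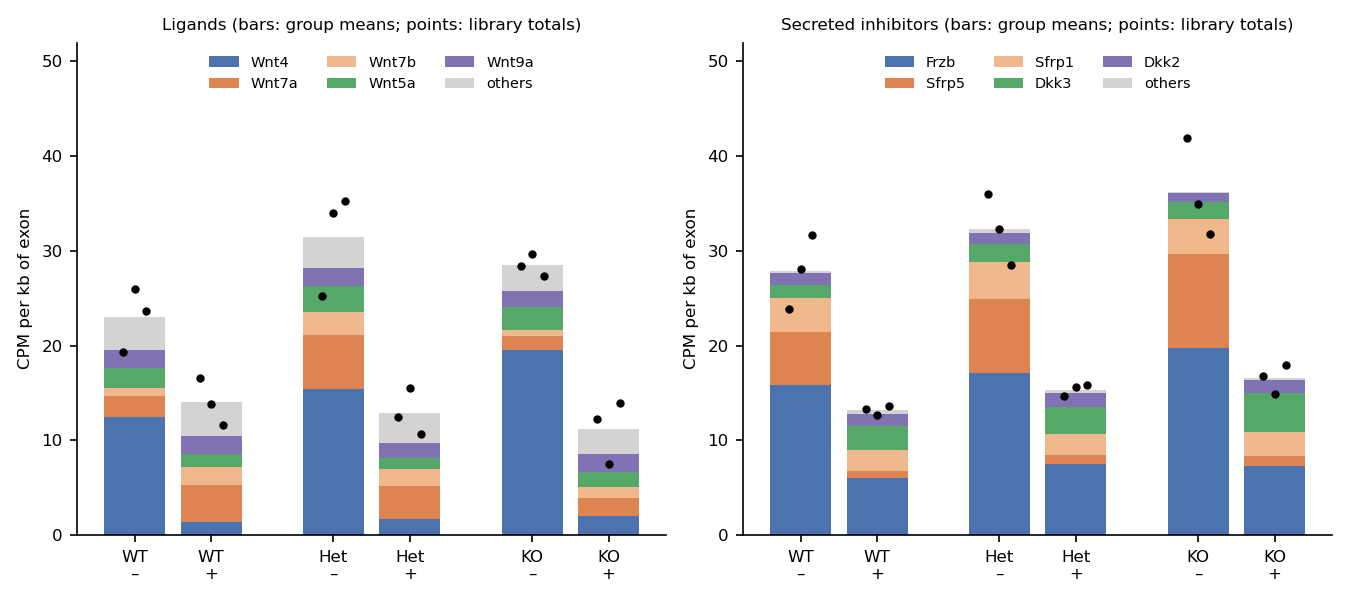
Summed level of the Wnt ligands (left) and secreted inhibitors (right), as CPM per kb of exon on the y axis, with genotype and treatment on the x axis. Stacked colours are the group means of single genes, points are the totals of single libraries, and - and + mark untreated and cytokines; treated groups hold a much smaller Wnt4 part than untreated ones, at 10.1% against 53.6% of the ligand sum in WT islets.

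Of 9 Frizzled genes, none passed in WT or Het islets. In KO islets 1 passed as lower, against 16.1% of all genes, and in the average 3 passed as lower, against 26.2%. Fzd8 was the KO call. Its level was 11.3, 12.5 and 12.2 CPM in untreated and 7.58, 9.51 and 9.68 CPM in treated KO libraries, which did not overlap. The change was -0.43 ± 0.10 in KO islets and -0.28 ± 0.06 on average (edgeR adjusted p of 0.0032 and 0.00074), beside -0.14 ± 0.10 in WT and -0.25 ± 0.10 in Het islets.

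Fzd3, a receptor of planar polarity in neurons, had an average change of -0.14 ± 0.05 (edgeR adjusted p = 0.031). It ranged from 38.2 to 48.5 CPM over the untreated and 33.2 to 44.2 CPM over the treated libraries, and the call was lost when any of 8 libraries was left out. Fzd4 had an average change of -0.42 ± 0.15 (edgeR adjusted p = 0.031), lost when any of 9 libraries was left out, and 0.12 ± 0.10 with the mesenchymal marker covariate. Fzd1, Fzd2, Fzd5, Fzd6, Fzd7 and Fzd9 did not pass, with average changes from -0.30 for Fzd9 to 0.00 for Fzd6. Fzd1, the Frizzled with the highest level per kb in untreated WT islets, was at 12.7, 44.2 and 41.1 CPM in untreated Het and 16.2, 20.0 and 38.0 CPM in untreated KO libraries. Mesenchymal marker sums were 1344, 3353 and 3692 CPM and 2093, 1954 and 4414 CPM in the same libraries. With these markers as a covariate the average Fzd1 change went from -0.28 ± 0.27 (edgeR adjusted p = 0.42) to 0.80 ± 0.10 (4.4e-06, the lowest over the alternatives run), so its direction depends on that covariate.

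Of the co-receptors, Lrp6 rose slightly. It went from 77.8, 75.0 and 71.6 CPM to 95.5, 93.9 and 84.2 CPM in WT islets, with no overlap. The change was 0.28 ± 0.07 in WT (edgeR adjusted p = 0.0092), 0.18 ± 0.07 in Het (0.083) and 0.12 ± 0.07 in KO islets (0.25), and 0.20 ± 0.04 on average (0.0012). Lrp5 had changes of 0.36 ± 0.18, 0.13 ± 0.18 and 0.14 ± 0.18, none of which passed. The WT change passed with only these groups (edgeR adjusted p = 0.041) and with limma (0.035). With the mesenchymal marker covariate all 3 passed, at 0.58 ± 0.09, 0.67 ± 0.11 and 0.50 ± 0.10 (edgeR adjusted p of 5.4e-05, 0.00017 and 0.00055). That covariate follows the treatment, so these Lrp5 values cannot be read as the cytokine effect alone.

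The next question was whether the cytokine response differed between genotypes. None of the 27 genes passed for a difference in response between Het and WT, KO and WT or KO and Het islets. Of all genes, 0%, 0.0114% and 0% passed in these tests. An unadjusted p under 0.05 was found for 0, 1 and 1 of the Wnt genes, against 4.91%, 6.82% and 5.81% of all genes. DESeq2 and limma also called none of the Wnt genes. For Wnt4 the KO minus WT difference in response was -0.07 ± 0.29, with an interval of 2 SE from -0.64 to 0.51, and for Sfrp5 it was -0.32 ± 0.44, from -1.20 to 0.56. The smallest p belonged to Wnt10b, a canonical ligand, in KO against WT islets, at -1.51 ± 0.65 (edgeR adjusted p = 0.68), and to Wnt9a in KO against Het islets, at 0.44 ± 0.19 (0.82). Wnt10b had at most 15 reads in a library. In Het against WT islets it belonged to Fzd7, at -0.47 ± 0.27 (0.87).

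Genotype was then compared within each treatment, where the comparisons share their WT, Het or KO libraries. In treated islets, 2 receptors were lower in KO than in WT and passed, Fzd4 and Fzd5. Of all genes, 3.85% were lower and 1.48% higher in this comparison, and 7.41% of the Wnt genes were lower. Fzd4, a receptor for both Wnt ligands and Norrin that is known from blood vessels, was at 18, 13.6 and 11.9 CPM in treated WT libraries. It was at 13.1, 12.2 and 9.90 CPM in treated Het and 6.53, 4.35 and 8.98 CPM in treated KO libraries. All KO libraries lay below all WT and Het libraries. The log2 fold change, KO minus WT, was -1.12 ± 0.27, or 2.18-fold lower (edgeR adjusted p = 0.026).

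Fzd5, an epithelial receptor, was at 13.4, 13.1 and 11.2 CPM in treated WT and 7.97, 6.91 and 9.52 CPM in treated KO libraries, which did not overlap. The change was -0.63 ± 0.15, or 1.54-fold lower (edgeR adjusted p = 0.027). A gene on the other strand, Gm38058, overlaps its exons. Both calls were lost without WT replicate 1 or 2 or KO replicate 1 or 2 of the treated libraries, with adjusted p of 0.072 to 0.13 for Fzd4 and 0.088 to 0.14 for Fzd5. With only these 2 groups in the fit the changes stayed at -1.12 ± 0.27 and -0.63 ± 0.14, with adjusted p of 0.068 and 0.062. With acinar markers as a covariate they were -1.51 ± 0.67 and -0.48 ± 0.39, with wider errors and adjusted p of 0.63 and 0.69.

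Endothelial markers moved beside Fzd4. Of 9 such markers, all detected in every library, 6 were lower in treated and 2 in untreated KO than WT islets, and none higher. Of all genes, 3.85% and 2.48% were lower in these comparisons. The summed level of the 9 markers was 544, 377 and 355 CPM in treated WT and 243, 158 and 277 CPM in treated KO libraries. Krt19 and Muc1 of the 7 duct markers were lower too, by 2.02 and 1.22 on the log2 scale in treated islets, and all 11 tested acinar markers were lower with a median log2 fold change of -2.72. A further acinar marker, Amy2a5, was at 0 in 7 libraries. The part of the endothelial and duct markers in Fzd4 and Fzd5 was not tested.

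**Figure D4:**
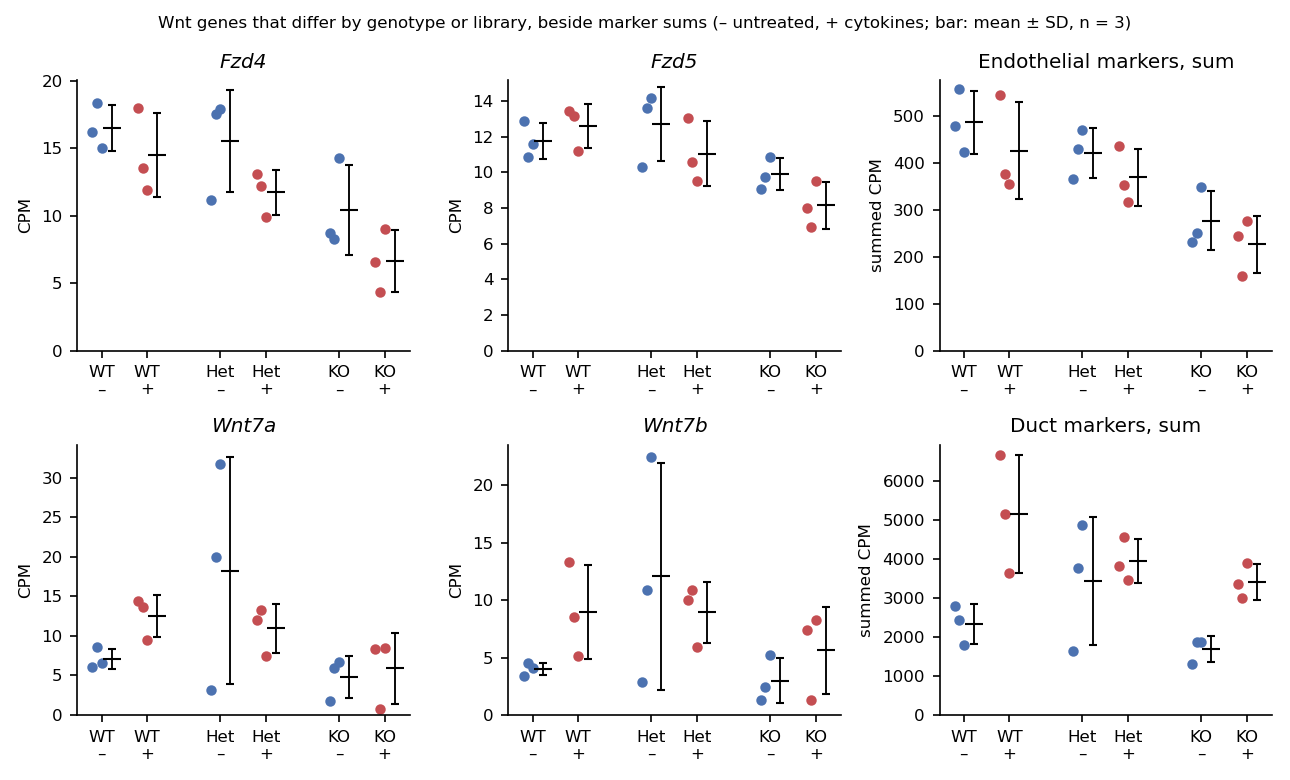
Fzd4, Fzd5, Wnt7a and Wnt7b beside the summed endothelial and duct markers, per library. The y axis is CPM (summed CPM for markers) and the x axis the genotype, untreated (-) or with cytokines (+); each point is a library and the bars are the mean ± SD (n = 3). The treated KO points of Fzd4, from 4.35 to 8.98 CPM, lie below the treated WT points, from 11.9 to 18 CPM. Most of the duct sum in treated WT libraries is Spp1, at a mean of 4170 CPM.

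In untreated islets none of the 27 genes passed for KO against WT, where 0.563% of all genes were higher and 2.48% lower. An unadjusted p under 0.05 was found for 6 of the 27 Wnt genes, against 18.5% of all genes. The smallest p belonged to Wnt4, Sfrp5 and Fzd9. Wnt4 had a KO minus WT log2 difference of 0.65 ± 0.18 and groups that did not overlap (edgeR adjusted p = 0.068), and DESeq2 and limma called it (adjusted p of 0.015 and 0.014). Over the alternatives run its adjusted p ran from 0.011 to 0.62, and it passed without untreated Het replicate 1 or 3. Sfrp5 differed by 0.82 ± 0.27 (edgeR adjusted p = 0.11) and Fzd9, with at most 18 reads in a library, by -1.14 ± 0.43 (0.17). Of 9 beta and 7 alpha cell markers, 1 each passed as higher and 0 as lower, with median log2 differences of 0.34 and 0.32. No delta cell marker passed (median -0.07), and all 11 tested acinar markers were lower (median -2.22). The part of these markers in the Wnt4 and Sfrp5 differences was not tested. Fzd4 differed by -0.66 ± 0.26 (0.19), with 16.2, 18.4 and 15 CPM in WT and 8.68, 8.28 and 14.3 CPM in KO libraries. DESeq2 called 1 and limma 5 of the 27 genes in this comparison, and the shares of all genes they called are not given here.

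In treated KO against WT islets the next smallest p belonged to Lrp5, with 107, 94.4 and 77.7 CPM in WT and 63.9, 48.7 and 68.7 CPM in KO libraries. The groups did not overlap, and the change of -0.62 ± 0.18 just missed the threshold (edgeR adjusted p = 0.054; 0.00063 to 0.63 over the alternatives run). An unadjusted p under 0.05 was found for 10 of the 27 genes, against 24.3% of all genes in this comparison. DESeq2 called 5 and limma 10 of the 27 genes, and the shares of all genes they called are not given here.

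No Wnt gene passed in the other 4 genotype comparisons. For Het against WT, 0.00569% of all genes passed untreated and 0% with cytokines. An unadjusted p under 0.05 was found for 1 and 0 Wnt genes, against 7.13% and 7.11% of all genes. The smallest p were those of Wnt7b untreated, 1.59 ± 0.67 (edgeR adjusted p = 0.65), and Frzb treated, 0.30 ± 0.15 (0.71). For KO against Het, 0.00569% passed untreated and 0% with cytokines. Slc30a8 itself did not pass there, at -1.17 ± 0.18 untreated and -0.94 ± 0.19 with cytokines (edgeR adjusted p of 0.10 and 0.27). Its KO and Het libraries did not overlap in either treatment, so a gene that did not pass may still differ. Here 6 and 3 Wnt genes had an unadjusted p under 0.05, against 14.9% and 8.45% of all genes. The smallest p were those of Wif1 untreated, -1.72 ± 0.58 (0.21), and Fzd4 treated, -0.82 ± 0.27 (0.46). DESeq2 called none in these 4 comparisons, and limma called 4 in untreated KO against Het islets and none in the other 3. The shares of all genes that DESeq2 and limma called are not given here, so the 4 cannot be set against them. Wif1 had at most 43 reads in a library.

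Other genes of the pathway were read from 6 lists. Of 114 listed genes, 106 were tested. With cytokines 19, 17 and 19 rose, by genotype in the order WT, Het, KO (17.9%, 16.0% and 17.9%) and 18, 20 and 25 fell (17.0%, 18.9% and 23.6%), against the shares of all genes given above. In the release list, Wls, the carrier that brings Wnt ligands to the cell surface, fell in all genotypes, from 180 ± 8.28 to 119 ± 6.74 CPM in WT islets (-0.59 ± 0.07, -0.62 ± 0.07 and -0.71 ± 0.07). Vps35, a retromer subunit that recycles Wls, fell as well, by 0.39, 0.34 and 0.30 on the log2 scale. Of 10 tested release genes, 1 rose and 2 fell in each genotype, and Porcn, the enzyme that adds the lipid, did not pass. Gpc4 and Tmed5 of this list also passed in a cytokine comparison.

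Of 17 tested genes for R-spondins, their receptors and other Wnt receptors, 3 rose in each genotype and 2, 4 and 4 fell. Ror2, a receptor for Wnt5a, fell from 35.3 ± 1.6 to 22.4 ± 1.22 CPM in WT islets and by 0.66, 0.54 and 0.69 on the log2 scale in WT, Het and KO islets. Rspo4, an R-spondin that strengthens Wnt signals, rose by 0.71, 0.91 and 1.19 on the log2 scale, with WT levels of 86.6 ± 10.8 CPM untreated and 142 ± 9.56 CPM treated, and its receptor Lgr4 rose by 0.48, 0.46 and 0.36. Znrf3, a ligase that removes Frizzled receptors from the surface, fell by 0.22, 0.24 and 0.38.

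Of 8 tested genes for other inhibitors, 1, 2 and 2 rose and 1, 2 and 1 fell. Shisa2, which holds Frizzled receptors inside the cell, rose from 10.5 ± 1.53 to 18.2 ± 1.64 CPM in WT islets (0.79, 1.13 and 1.35 in the 3 genotypes). Apcdd1, a membrane inhibitor and Wnt target, fell by 0.91, 1.12 and 1.14. Sostdc1, an LRP-binding inhibitor, rose in Het and KO islets by 2.25 and 1.53 from under 1 CPM, and Trabd2b, which inactivates Wnt ligands, fell in Het islets by 1.51.

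Of 32 tested intracellular transducers, 6, 5 and 6 rose and 6, 4 and 8 fell. Dvl1, which relays the Frizzled signal, rose from 54.8 ± 1.01 to 73.3 ± 1.58 CPM in WT islets (0.42, 0.34 and 0.33). Ctnnbip1 and Cby1, both inhibitors of beta-catenin, fell by 0.40, 0.55 and 0.68 and by 0.41, 0.39 and 0.42. Tle2, a co-repressor of TCF factors, fell by 0.51, 0.82 and 1.01. Of 23 tested genes of the planar polarity and calcium branches, 3, 4 and 5 rose, among them Daam1 and Camk2d, and 3, 4 and 6 fell, among them Prickle1 (by 0.50, 0.72 and 0.65) and Camk2b.

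Of 22 tested targets of beta-catenin, 5, 2 and 2 rose and 6 fell in each genotype. Zcchc12 fell from 26.3 ± 2.65 to 9.21 ± 0.515 CPM in WT islets, by 1.52, 1.45 and 1.5 on the log2 scale in the 3 genotypes. The cyclin genes Ccnd1 and Ccnd2 fell by 0.85, 0.86 and 0.90 and by 0.65, 0.60 and 0.80. Axin2, the feedback inhibitor most used as a reporter of the canonical branch, was named after its values were seen; its WT level went from 9.22 ± 0.280 CPM to 6.40 ± 0.602 CPM, and it fell by 0.53, 0.61 and 0.81 on the log2 scale in the 3 genotypes. Lef1, Lgr5 and Myc did not pass in any genotype, and Jun and Cd44, targets of many pathways and also named after their values were seen, rose in all 3 genotypes. In KO against WT islets 4 of the 106 genes were lower and none higher untreated, against 2.48% and 0.563% of all genes. With cytokines 5 were lower and 1 higher, against 3.85% and 1.48%. Ctnnb1, which encodes beta-catenin, was lower in both, by 0.33 ± 0.08 and 0.31 ± 0.08 on the log2 scale (edgeR adjusted p of 0.031 and 0.029), at 541 and 431 CPM in untreated WT and KO islets.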

How the data were processed

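Gene counts of 18 islet libraries were used as deposited. Per the submitters' processing notes, the authors' tools were STAR 2.5.2a and featureCounts 1.6.2 on GRCm38, besides cutadapt 1.16, FastQC 0.11.7 and, at a step not named, DESeq2 1.30.0; strandedness is not stated in the labels. All 55536 gene identifiers matched the GENCODE annotation, from which exon lengths were taken. Depth was 22990164 to 29946680 counted reads per library, and a gene with few reads has a correspondingly wide error.

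From the counts, edgeR 4.0.16 (R 4.3.3) fitted all 6 groups together, with TMM scaling, filterByExpr (count minimum 10), the quasi-likelihood test and Benjamini-Hochberg adjustment over 17590 genes for each of 13 comparisons. The SE is the absolute log2 fold change divided by the square root of F. The fit was also run on simulated counts drawn independently for each library, which do not copy the marker shifts between libraries. No result here rests on that run. Alternatives were RLE scaling, other filters, only the groups compared, DESeq2 1.42.0, limma 3.58.1 with voom and sample weights, a replicate block, marker covariates and leaving out each library. A block by the number in the deposited sample table was added after seeing the data.

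The Wnt genes, pathway lists and marker lists were chosen with earlier results of these data known. Every Wnt gene is accounted for. Those called for cytokines were ranked by the adjusted p of the average effect. Their library values are given, in only some groups for Fzd8, Lrp6 and Fzd4 and as ranges for Fzd3. For genotype and response differences, called genes or else at least the gene of smallest p are named, and for each pathway list up to 4 called genes. Promoter windows came from RefSeq.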

Additional observations from a re-analysis of the deposited data

How the results depend on the processing

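Of 30 calls of Wnt genes in the comparisons, 20 held in every alternative run and 10 were lost in some. Numbers of Wnt genes called, where they moved by over 1.5 times, were as follows. The share of all genes called under each alternative is not given beside them. With cytokines in WT islets the 5 calls became 10 with only these groups, 8 with limma and 15 with the mesenchymal marker covariate. In Het islets the 5 became 12, 8 and 11 with limma, the replicate block within genotype and the mesenchymal covariate. In KO islets the 7 became 15 with that covariate, and 4 to 10 when 1 library was left out (4 without treated KO replicate 1). For KO against WT untreated, 0 became 1 with no filter, 1 with DESeq2, 5 with limma and 5 with the mesenchymal covariate, and 0 to 1 when 1 library was left out (1 without untreated Het replicate 1 or 3). For KO against Het untreated, 0 became 4 with limma and 3 with the mesenchymal covariate, and 0 to 5 when 1 library was left out (5 without untreated Het replicate 1). For KO against WT with cytokines, 2 became 0 with only these groups and 0 with the acinar covariate, 5 with DESeq2, 10 with limma and 9 with the mesenchymal covariate, and 0 to 4 when 1 library was left out (0 without WT or KO replicate 1 or 2, 4 without KO replicate 3). For KO against Het with cytokines, 0 became 5 with the mesenchymal covariate. That covariate also reversed Wnt7b in Het islets (1.83), Fzd1 in Het (0.96), KO (0.60) and the average (0.80), Fzd2 in Het (0.99) and the average (0.75), and Fzd4 in the average (0.12). Most of these markers fell with cytokines in the average, so this covariate follows the treatment. The cause of the reversals was not tested. The labels do not say that a number marks a shared mouse. Same-numbered libraries of a genotype had r from -0.22 to 0.39 between treatments, and 5 of 9 correlated best with their own number, so pairing was not established; the replicate block gave 6, 4, 7 and 11 calls for cytokines in WT, Het, KO and the average, and the Het call of Wnt5a was lost (adjusted p = 0.052). The block within genotype called Dkk3 also in WT and Het islets (0.0094 and 0.017). Depth limits Wnt10b, Fzd9 and Wif1, with at most 15, 18 and 43 reads.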
